A study of Homo sapiens with 16 samples.

Results

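SLC12A2, SLC12A4, SLC12A7, WNK1, OXSR1, STK39 and LRRC8A encode transporters, kinases and a channel through which animal cells correct their volume. Every interval of the deposited count table that overlapped 1 of these 7 genes, or lay within 10 kb (10000 bp) of 1 of their GENCODE release 44 transcript starts, was taken. This gave 33 of 74404 intervals: 7 each for SLC12A7, WNK1 and STK39, 5 for SLC12A4, 4 for LRRC8A, 2 for SLC12A2 and 1 for OXSR1. Values came from 16 CUT&Tag libraries. All were made from HEK293 cells, an established line from human embryonic kidney, with the genotype eGFP-YAP in every group. CUT&Tag directs a transposase to an antibody's target in nuclei, so that reads mark where the target lay. The targets were CTCF, RAD21, H3K27ac and eGFP-YAP, the last read with a GFP antibody and called YAP1 here. Cells had vehicle, or sorbitol at 200 mM for 1 h, with 2 libraries for each target and treatment (8 groups). The labels do not say whether the line is a clone, or whether the libraries of a group came from separate cultures, so p-values measure the spread between these libraries, which may be technical. The headers place the vehicle samples at the start of the time course and the sorbitol samples after it, so that an effect of time cannot be told apart from one of sorbitol. Control libraries with an unspecific antibody were not used here.

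In hyperosmotic medium a cell loses water and shrinks, and it regains volume by taking up ions. WNK1, a kinase that responds to osmotic stress and low chloride, activates the related kinases OXSR1 (also called OSR1) and STK39 (also called SPAK). These phosphorylate the cation-chloride cotransporters, which activates SLC12A2 (NKCC1, which brings in sodium, potassium and chloride) and inhibits the potassium-chloride exporters SLC12A4 (KCC1) and SLC12A7 (KCC4). LRRC8A is the essential subunit of the volume-regulated anion channel, which opens in swollen cells. H3K27ac marks active promoters and enhancers, CTCF is a DNA-binding insulator protein, RAD21 is a subunit of the cohesin ring that CTCF can halt, and YAP is a coactivator that binds DNA through TEAD factors.

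The sequences printed here come from the hg38 genome and, for promoters, from the RefSeq table of GRCh38.p14, in which all 7 genes had an entry. The sites below are the best matches to the CTCF consensus in the 3 intervals where CTCF fell. The 14 bases compared with the consensus are in capitals. The WNK1 upstream site (chr12:751417-751446, minus strand) has 1 mismatch, and the STK39 intron site (chr2:168118834-168118863, minus strand) and WNK1 intron site (chr12:816630-816659, minus strand) have 2. Best matches with 2 mismatches also lie at the OXSR1 and LRRC8A start sites, where CTCF rose. They also lie at the SLC12A2, SLC12A4, SLC12A7 and STK39 start sites, without a CTCF call. The share of all intervals with at most 2 mismatches was not computed.
WNK1 upstream: ggggacgaGCACCAGGGGGCACcagaccga
STK39 intron: gcttttggTCACTAGGGGGTGCtattagaa
WNK1 intron: tcctgtacCAAGTAGATGGTACaaatttat

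The next stretches are from the SLC12A7 introns where CTCF rose, and RAD21 and YAP1 with it at the first. They are tandem repeats. The first (chr5:1098066-1098245, plus strand) has in capitals AACCCTCTGCA, the most frequent word of 11 bases in its interval, which holds 9 copies; the neighbouring interval holds 4, and the word occurs in 28 of the 74404 intervals. The second (chr5:1072442-1072561, plus strand) has in capitals CCCCAGTGAGCCCCCAG, the most frequent word of 17 bases in its interval. That interval holds 7 overlapping copies and no other interval of the count table holds any. Its sequence is still not unique, as words of 25 bases from it occur at a median of 47 places on chromosome 5.
SLC12A7 13.8 kb: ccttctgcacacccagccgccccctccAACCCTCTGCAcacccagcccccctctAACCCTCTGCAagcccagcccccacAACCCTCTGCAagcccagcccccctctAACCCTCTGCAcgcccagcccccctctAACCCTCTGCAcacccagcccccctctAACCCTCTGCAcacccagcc
SLC12A7 39.5 kb: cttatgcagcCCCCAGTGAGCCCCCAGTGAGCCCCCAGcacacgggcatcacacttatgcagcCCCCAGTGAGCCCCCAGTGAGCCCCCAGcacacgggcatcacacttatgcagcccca

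The last are 100 bases from the promoters of OXSR1 (chr3:38165405-38165504, plus strand) and SLC12A2 (chr5:128083666-128083765, plus strand), where acetylation fell. Capitals mark the cyclic AMP response element TGACGTCA in OXSR1 and the GC box GGGCGG, here on the other strand, in SLC12A2. Neither is particular to these genes. TGACGTCA also occurs in a LRRC8A promoter, where acetylation was not called, and the GC box in a promoter of every member gene. Searched on both strands, TGACGTCA occurs in 1.85% and GGGCGG in 45.0% of the 35116 promoters of 300 bases in the table.
OXSR1 promoter: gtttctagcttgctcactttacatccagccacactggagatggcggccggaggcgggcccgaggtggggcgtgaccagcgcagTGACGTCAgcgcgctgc
SLC12A2 promoter: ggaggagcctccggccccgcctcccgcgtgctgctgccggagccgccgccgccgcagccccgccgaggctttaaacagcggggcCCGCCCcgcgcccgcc

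Library totals ran from 1187939 to 8842656 counts, of which 236 to 7187 fell in the 33 intervals. Levels are counts per 1000000 (CPM) of the library size scaled by the trimmed mean of M-values (TMM), divided by interval length in kb where genes are compared. Fold changes are sorbitol over vehicle from edgeR's quasi-likelihood test on all intervals of a target, and an interval was called where the Benjamini-Hochberg adjusted p over all of them was under 0.05. The share of counts on the mitochondrial genome was higher with sorbitol in CTCF (15.7 and 19.95% in vehicle, 32.8 and 33.9% in sorbitol), RAD21 (34.3 and 38.5% against 44.8 and 46.0%) and YAP1 (36.5 and 38.1% against 55.4 and 57.8%), and lay between 1.96 and 2.08% in H3K27ac. Without mitochondrial and other dominant intervals the member calls were as many (CTCF 9, RAD21 1, YAP1 2 and H3K27ac 5). Scaling by total counts moved the median log2 fold change of all intervals to -1.04 in CTCF, -0.60 in RAD21, -1.46 in YAP1 and 0.17 in H3K27ac, so each change is relative to the other intervals of its target.

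Acetylation at the start sites of 2 of the 7 genes fell with sorbitol: SLC12A2, the ion importer, and OXSR1, the kinase that activates it. Within 1 kb of any start, 4 of 14 tested members were called, all lower. Of all 23198 such tested intervals 36.8% were called in either direction, and the members' share is not above that background. Over all members H3K27ac was called in 5 of 29 tested intervals, 1 higher and 4 lower, and 23.1% of all 56601 tested intervals were called (8.59% higher, 14.5% lower). The members' median log2 fold change was -0.08, against 0.02 over all tested intervals. Among intervals within 1 kb of any start the median was -0.27 over 14 members and -0.13 over all 23198, and farther away it was 0.39 over 15 tested members and 0.17 over all 33187.

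The SLC12A2 start-site interval (chr5:128082803-128084944, which also holds the start of the divergent transcript SLC12A2-DT) had H3K27ac levels of 69.4 and 62.7 CPM per kb in vehicle and 41.4 and 45.1 in sorbitol. Both sorbitol libraries lay below both vehicle libraries. The mean went from 141.5 ± 10.1 to 92.7 ± 5.63 CPM (SD, n = 2), a log2 fold change of -0.61 ± 0.075 (SE; edgeR adjusted p = 4.71e-08). The OXSR1 start-site interval (chr3:38164757-38166399) had 75.9 and 75.0 CPM per kb in vehicle and 50.9 and 46.9 in sorbitol. Its groups did not overlap either, and its log2 fold change was -0.62 ± 0.076 (SE; edgeR adjusted p = 4.19e-08). Both falls were called under each of 11 other settings and without each of the 4 libraries in turn.

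Acetylation at the other start sites was not called. WNK1, the kinase at the head of the cascade, had 55.4 and 59.97 CPM per kb of H3K27ac in vehicle and 59.8 and 57.7 in sorbitol at its start site (chr12:751876-754516). These values overlapped, with a log2 fold change of 0.03 ± 0.067 (SE), which turned to -0.24 when libraries were scaled to the weakest 25% of intervals. STK39 (chr2:168246266-168248074) had 26.2 and 33.9 against 30.5 and 26.4 CPM per kb, and LRRC8A (chr9:128881596-128883363, an interval shared with the start of KYAT1) had 39.4 and 38.8 against 39.0 and 42.2. Their groups overlapped too. The exporters SLC12A4 (chr16:67967527-67969014) and SLC12A7 (chr5:1110835-1112290) had 21.1 and 25.1 against 20.01 and 21.5, and 35.0 and 37.6 against 32.5 and 31.4 CPM per kb. The SLC12A7 libraries separated, without a call (log2 fold change -0.19 ± 0.10, SE, edgeR adjusted p = 0.186).

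**Figure D1:**
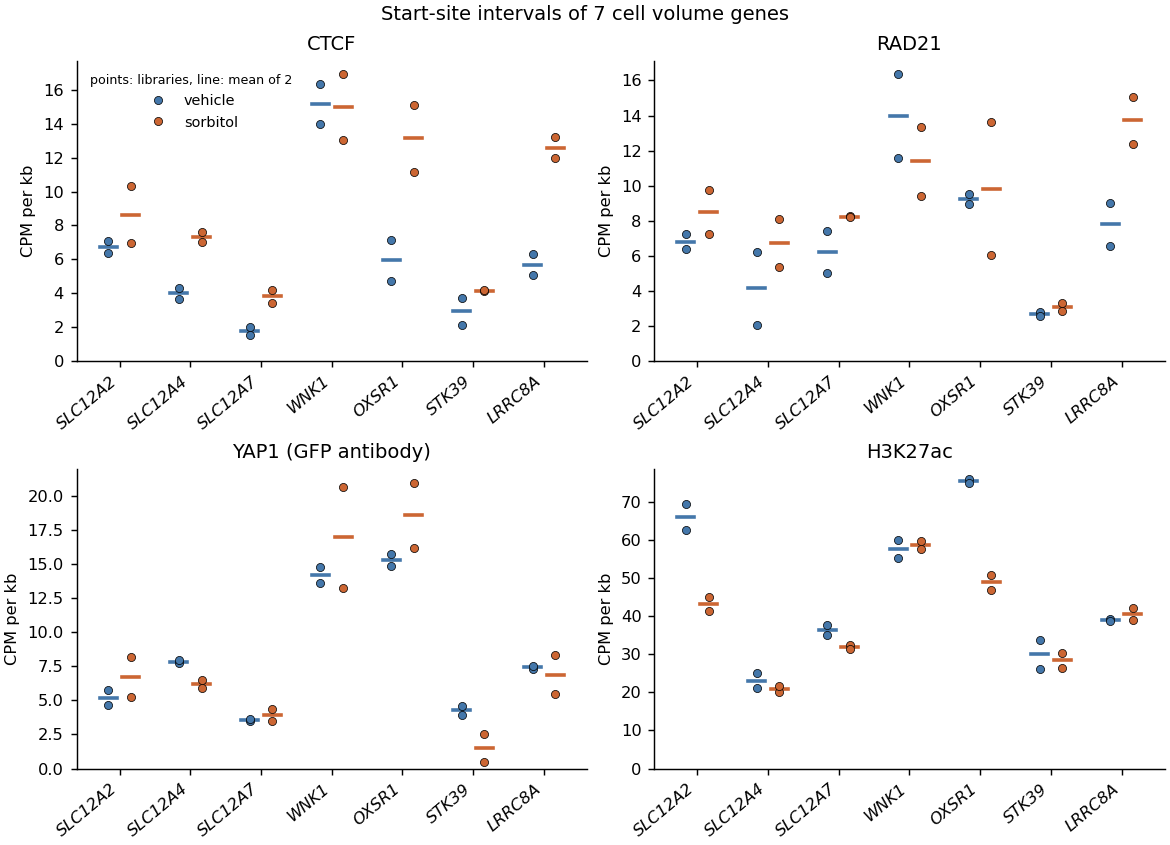
Level in CPM per kb (y) at the start-site interval of each gene (x) for the 4 targets; points are libraries, lines the mean of 2, blue vehicle and orange sorbitol. H3K27ac at SLC12A2 and OXSR1 is lower in both sorbitol libraries, and CTCF at OXSR1 and LRRC8A is higher in both.

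The order of the start sites by H3K27ac per kb was OXSR1 (75.4 CPM per kb), SLC12A2 (66.0), WNK1 (57.7), LRRC8A (39.1), SLC12A7 (36.3), STK39 (30.1) and SLC12A4 (23.1) in vehicle, each gene's libraries lying above those of the next. In sorbitol WNK1 led with 58.7 CPM per kb, followed by OXSR1 with 48.9 and SLC12A2 with 43.3, and the SLC12A2 libraries overlapped those of LRRC8A (40.6). SLC12A7, STK39 and SLC12A4 kept the last 3 places with 31.9, 28.4 and 20.8 CPM per kb.

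The 3 other H3K27ac calls lay away from the members' own start sites. An interval over PSMB10, 33.5 kb from the 5′ end of SLC12A4 (chr16:67935322-67936940), had 46.4 and 49.7 CPM per kb in vehicle and 40.7 and 37.4 in sorbitol (log2 fold change -0.30 ± 0.088, SE, edgeR adjusted p = 0.011). An interval at the start of PHYHD1, 39986 bp from the 5′ end of LRRC8A (chr9:128921421-128922817), had 50.6 and 44.9 against 43.2 and 35.8 (-0.27 ± 0.099, adjusted p = 0.0428). Both calls were lost with GC-corrected offsets (-0.14 and -0.16), among other settings, and when 1 library was left out: without sorbitol replicate 2 (-0.24 and -0.14), the first also without vehicle replicate 2 (-0.26) and the second without vehicle replicate 1 (-0.19). The 1 rise lay in a WNK1 intron 103.7 kb into the gene (chr12:856214-856427), with 0 and 2 counts in vehicle and 17 and 12 in sorbitol (edgeR adjusted p = 0.00698). That is a ratio of 10.3, with a 95% exact binomial interval of 2.61 to 89.3 for counting error only. The call was lost without sorbitol replicate 2 (log2 fold change 3.37, adjusted p = 0.145) or vehicle replicate 1 (2.29, 0.13). Words of 25 bases from this interval occur at a median of 8.5 places on chromosome 12, so its reads could belong to other copies.

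CTCF was called in 9 of 19 tested member intervals, 6 higher and 3 lower, where 40.2% of all 39261 tested intervals were called (19.5% higher, 20.7% lower). The members' share is near that background. The rises lay at the start sites of OXSR1 and LRRC8A, in SLC12A7 introns and beside SLC12A4, and the falls in or beside the kinase genes STK39 and WNK1. By place, the median log2 fold change within 1 kb of a start was 0.58 over 12 tested members and 0.42 over all tested intervals, and farther away -0.79 over 7 members and -0.56 over all.

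At the OXSR1 start site CTCF levels were 7.17 and 4.70 CPM per kb in vehicle and 15.1 and 11.2 in sorbitol. At the LRRC8A start site they were 5.06 and 6.30 against 13.2 and 12.0. In both genes the sorbitol libraries lay above the vehicle libraries, with log2 fold changes of 1.11 ± 0.30 and 1.16 ± 0.28 (SE; edgeR adjusted p = 0.00544 and 0.00246). Both calls ended with GC-corrected offsets (0.65 and 0.67) and with total count scaling (0.13 and 0.18), that of OXSR1 also without vehicle replicate 2 (0.86) and that of LRRC8A without vehicle replicate 1 (0.98).

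At 4 other start sites the mean CTCF level was above vehicle without a call. SLC12A2 had 6.40 and 7.11 CPM per kb in vehicle and 6.96 and 10.3 in sorbitol, and SLC12A4 had 4.31 and 3.67 against 7.02 and 7.60. SLC12A7 had 1.54 and 2.03 against 3.41 and 4.20, and STK39 had 3.71 and 2.14 against 4.12 and 4.17. Except for SLC12A2 the groups did not overlap, with adjusted p of 0.0737, 0.119 and 0.419 from edgeR. The direction turned with GC-corrected offsets for SLC12A2 (-0.51) and STK39 (-0.30), and with total count scaling for SLC12A2 (-0.61), STK39 (-0.52) and SLC12A4 (-0.12), all uncalled. SLC12A4 was called when scaled to the weakest 25% (1.12). WNK1 had 14 and 16.4 against 16.9 and 13.0, the most CTCF per kb of the 7 start sites in vehicle, and its groups overlapped. Its log2 fold change of -0.01 became -0.62 with GC-corrected offsets and -0.99 with total count scaling, both called.

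The largest CTCF fall among members was in an STK39 intron 128.6 kb into the gene (chr2:168118698-168119263), which holds the site printed above. It had 69 and 34 counts in vehicle and 2 and 4 in sorbitol, or 18.2 and 13.7 against 1.76 and 3.33 CPM per kb. The groups were far apart, with a log2 fold change of -2.62 ± 0.57 (SE; edgeR adjusted p = 0.00101), called under each of the 10 other settings that tested it and without each library. RAD21 counts there were 7, 4, 2 and 0, too few for a test. H3K27ac counts there were 6, 0, 14 and 12, with no call.

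CTCF also fell at 2 of the WNK1 intervals. The one upstream of the start site, 1.2 kb from it (chr12:751254-751584), had 28.8 and 37.1 CPM per kb in vehicle and 18.0 and 12.8 in sorbitol (log2 fold change -1.08 ± 0.41, SE, edgeR adjusted p = 0.0386). The interval 64.0 kb into the gene (chr12:816309-816760) had 23.1 and 23.6 against 7.70 and 9.38 (-1.44 ± 0.43, adjusted p = 0.0105). Neither pair of groups overlapped. The upstream call was lost with DESeq2 (adjusted p = 0.0992), scaled to the weakest 25% (-0.82) and without sorbitol replicate 2 (-0.85), vehicle replicate 1 (-1.28) or vehicle replicate 2 (-0.91), and the intron call with GC-corrected offsets (-0.77) and without either vehicle replicate (-1.48 and -1.43). A further WNK1 interval 61.8 kb into the gene had 57 and 40 CTCF counts in vehicle and 9 and 12 in sorbitol, which was not called (adjusted p = 0.14). Its RAD21 counts were 17 and 10 in vehicle and 0 in both sorbitol libraries, where a count of 0 allows up to 3 per library.

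**Figure D2:**
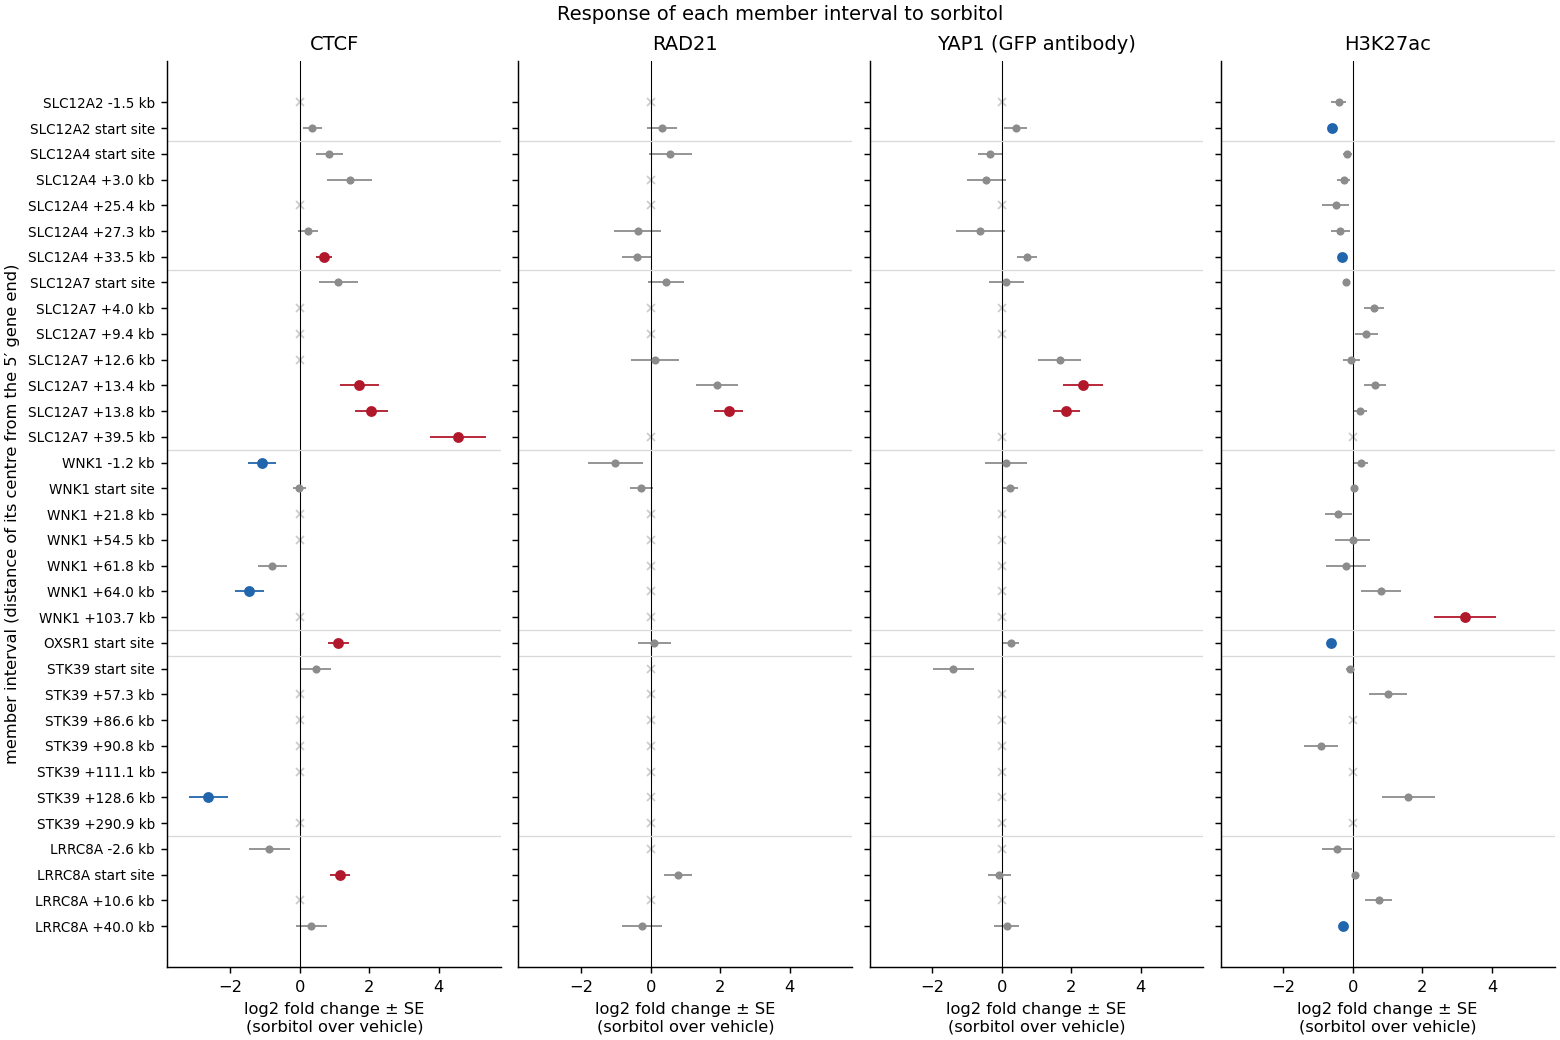
Log2 fold change with its SE (x) for each of the 33 member intervals (y, named by the distance of its centre from the 5′ end of the gene) in the 4 targets. Red and blue points are called higher and lower, gray points are tested without a call, and a pale cross at 0 marks an interval with too few counts for a test.

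SLC12A7, the potassium-chloride exporter KCC4, was the member with the most calls. An intron interval 13.8 kb into the gene (chr5:1098026-1098420) rose in CTCF, RAD21 and YAP1. Its CTCF levels were 9.82 and 4.03 CPM per kb in vehicle and 22.7 and 38.2 in sorbitol, a log2 fold change of 2.05 ± 0.47 (SE; edgeR adjusted p = 0.0017). RAD21 had 18.6 and 15.7 against 93.7 and 73.0 (2.25 ± 0.42, adjusted p = 0.00917). YAP1 had 9.35 and 16.1 against 42.9 and 48.7 (1.85 ± 0.39, adjusted p = 0.00452). In each of these targets both sorbitol libraries exceeded both vehicle libraries. H3K27ac, at 32.3 and 31.5 against 34.6 and 39.5 CPM per kb, was not called (0.21 ± 0.20, adjusted p = 0.457).

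This was the only RAD21 call among 13 tested member intervals, where 4.79% of all 17011 tested intervals were called (3.34% higher, 1.45% lower). YAP1 was called in 2 of 15 tested member intervals, where 6.83% of all 22765 were called (5.34% higher, 1.49% lower), and the other was the neighbouring interval 13.4 kb into SLC12A7 (chr5:1098545-1098771). Its YAP1 levels were 7.46 and 9.08 CPM per kb in vehicle and 29.9 and 56.4 in sorbitol (log2 fold change 2.33 ± 0.58, SE, edgeR adjusted p = 0.0169), and its CTCF levels 16.4 and 4.01 against 35.0 and 37.3 (1.71 ± 0.56, adjusted p = 0.0192). RAD21 there had 22.5 and 10.2 against 45.5 and 91.9, without a call (adjusted p = 0.0888). Groups did not overlap in these 3 targets. Farther in, 39.5 kb from the 5′ end (chr5:1072442-1072641), CTCF had 3 and 0 counts in vehicle and 19 and 10 in sorbitol, a ratio of 26.0 with a 95% exact binomial interval of 8.05 to 133.2 for counting error (edgeR adjusted p = 0.000134).

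These SLC12A7 calls rested on few counts and on repeated sequence. YAP1 at 13.8 kb lost its call without vehicle replicate 1 (log2 fold change 1.51), and YAP1 at 13.4 kb lost it without vehicle replicate 1 (2.22), vehicle replicate 2 (2.50) or sorbitol replicate 2 (1.78). CTCF at 13.4 kb lost it without vehicle replicate 2 (1.13) and with GC-corrected offsets (1.12). Total count scaling left 1 of the SLC12A7 calls, CTCF at 39.5 kb (3.60), and the others between 0.43 and 1.64. In the intervals at 39.5, 13.8 and 13.4 kb, 91.5%, 78.4% and 89.4% of words of 12 bases occurred more than once within the interval, so reads there may not have 1 place. Words of 25 bases from them occur at medians of 47, 2 and 3 places on chromosome 5. Over 50% of words were repeated in 2068 of the 74404 intervals (2.78%). Of such tested intervals 69.1% were called higher in CTCF, 21.0% in RAD21, 40.5% in YAP1 and 21.7% in H3K27ac, against 19.5%, 3.34%, 5.34% and 8.59% of all. The part of repetition in the SLC12A7 values was not tested. Without the 3 intervals the member calls were 6 for CTCF, 0 for RAD21 and 0 for YAP1.

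**Figure D3:**
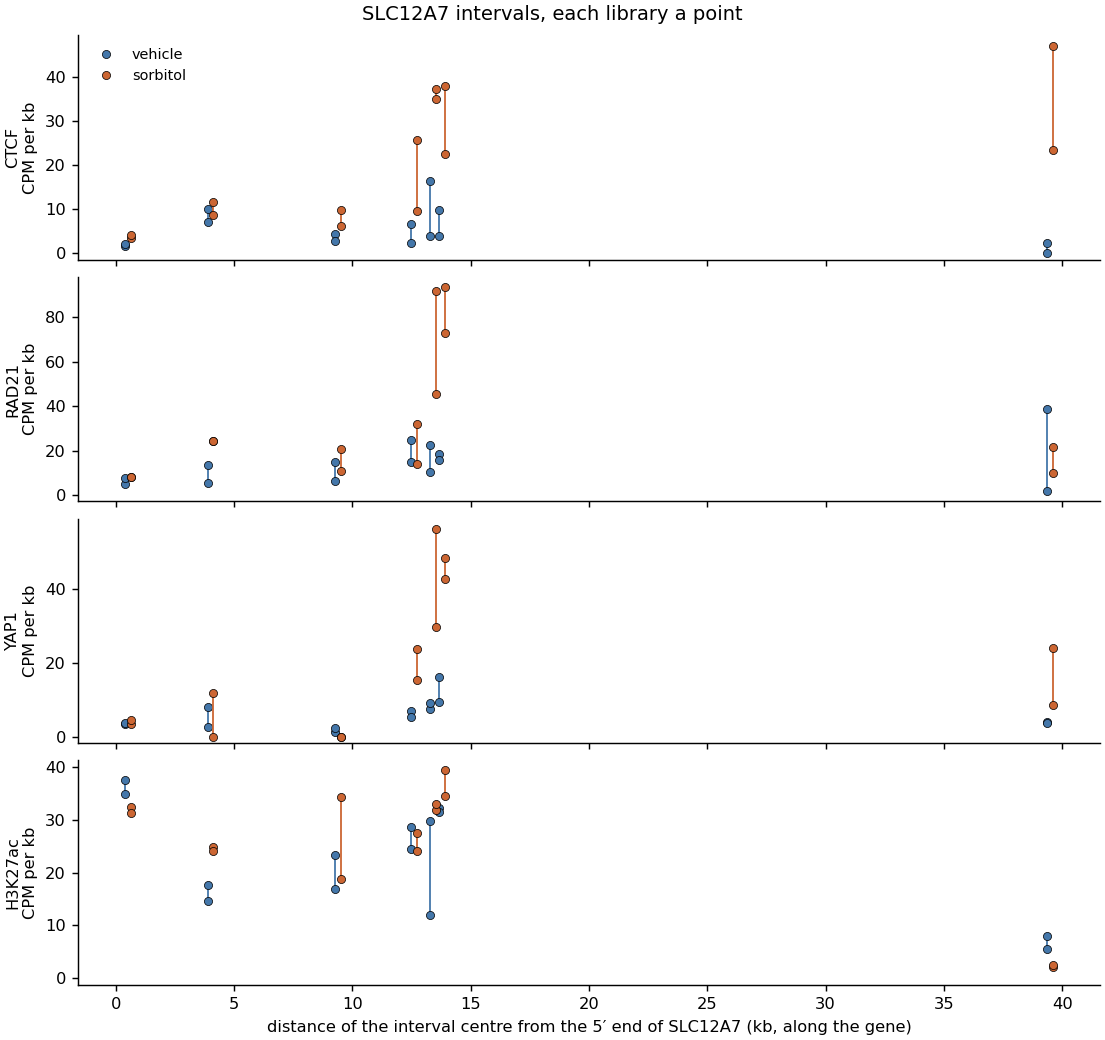
Level in CPM per kb (y) of the 7 SLC12A7 intervals by distance from the 5′ end of the gene (x, kb) for the 4 targets; points are libraries joined by group. Near 13.4 and 13.8 kb the sorbitol libraries of CTCF, RAD21 and YAP1 lie above the vehicle libraries.

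No RAD21 or YAP1 change was called at any of the 7 start sites. RAD21 at the WNK1 start site was 11.6 and 16.4 CPM per kb in vehicle and 13.4 and 9.41 in sorbitol, and at OXSR1 9.51 and 8.94 against 13.6 and 6.05, with overlap in both. RAD21 at SLC12A2 was 6.40 and 7.22 against 7.23 and 9.74, at SLC12A4 6.21 and 2.08 against 8.09 and 5.34, and at SLC12A7 5.04 and 7.43 against 8.27 and 8.19. SLC12A4 overlapped, and SLC12A2 and SLC12A7 were apart without a call (adjusted p = 0.689 and 0.64). At LRRC8A it was 9.02 and 6.56 against 15.1 and 12.4, apart without a call (log2 fold change 0.78 ± 0.40, SE, edgeR adjusted p = 0.255). STK39 had 16, 6, 6 and 6 counts, too few for a test.

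Among the start sites, YAP1 levels per kb were highest at OXSR1 and WNK1. OXSR1 had 15.7 and 14.8 CPM per kb in vehicle and 16.2 and 21.0 in sorbitol, and WNK1 had 13.6 and 14.8 against 13.3 and 20.6. SLC12A2 had 5.75 and 4.64 against 8.18 and 5.23, and SLC12A4 had 7.76 and 7.93 against 6.46 and 5.92. SLC12A7 had 3.49 and 3.60 against 3.49 and 4.40, and LRRC8A had 7.31 and 7.53 against 8.31 and 5.44. The SLC12A4 and OXSR1 libraries separated by treatment, in opposite directions and without a call (adjusted p = 0.649 and 0.573). STK39 stood at 4.59 and 3.94 in vehicle and 2.50 and 0.44 in sorbitol, from 54, 38, 8 and 1 counts. This was not called (log2 fold change -1.39 ± 0.60, SE, edgeR adjusted p = 0.194). It was called without sorbitol replicate 1 (-3.32, adjusted p = 0.0206), in the fit on 16 libraries (-1.80, 0.0222) and with total count scaling (-2.78, 0.00271), and it was -0.84 without sorbitol replicate 2.

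For CTCF and for RAD21, the interval of highest mean CPM over 1 kb from a gene's own starts was taken. OXSR1 had none, and the WNK1 upstream interval was not considered, as its edge lies 995 bp from a start. The interval taken was above the median of tested intervals for both targets in 3 genes. These were the PSMB10 interval beside SLC12A4, the PHYHD1 interval beside LRRC8A and SLC12A7 at 13.8 kb. The LCAT interval beside SLC12A4 (chr16:67942052-67942531), weaker in CPM than the PSMB10 interval, had CTCF means of 14.2 ± 1.12 and 16.7 ± 1.76 CPM (SD, n = 2), without a call. Being shorter, it was stronger per kb, with 27.96 and 31.25 CPM per kb in vehicle and 32.1 and 37.28 in sorbitol. The PSMB10 interval had CTCF levels of 9.95 and 10.5 CPM per kb in vehicle and 15.4 and 17.7 in sorbitol (log2 fold change 0.70 ± 0.24, SE, edgeR adjusted p = 0.023). This last CTCF call held under 4 of 11 other settings. It turned to -0.28 with total count scaling, and was lost with DESeq2 (0.68) and GC-corrected offsets (0.15). It was also lost at a mean of at least 50 counts (0.52), without a count filter (0.50) and in the fit on 16 libraries (0.51). The same held without sorbitol replicate 2 (0.59), vehicle replicate 1 (0.63) or vehicle replicate 2 (0.73). This interval is the sixth CTCF rise by size. RAD21 there was 13.0 and 10.98 against 7.97 and 10.4, without a call. The PHYHD1 interval had CTCF of 4.38 and 6.83 against 10.7 and 3.37, and RAD21 of 10.0 and 12.7 against 3.70 and 15.7, which overlapped.

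The responses of 2 targets were compared in 1 edgeR fit over 8 libraries. RAD21 minus CTCF was called in 0 of 22 tested member intervals (0.83% of all 42641), with 4 at an unadjusted p under 0.05 and 0 by DESeq2. H3K27ac minus YAP1 was called in 2 of 25, 1 higher and 1 lower (6.27% of all 52935, 3.73% higher and 2.54% lower). At SLC12A7 13.8 kb the acetylation response lay below the YAP1 response by 1.29 on the log2 scale (difference -1.29 ± 0.43, SE, adjusted p = 0.0498). At the STK39 start site it lay above it (1.65 ± 0.53, SE, adjusted p = 0.0385). At the OXSR1 start site, where acetylation fell, the difference was -0.52 ± 0.24 (adjusted p = 0.195).

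Ratios of counts within a library need no scaling between libraries. This measure was added after the values had been seen. Each interval was divided by the start-site interval of its own gene, and with 2 libraries against 2 the smallest two-sided exact permutation p is 0.33. For CTCF, 11 of 26 ratios were lower in both sorbitol libraries and 3 higher. RAD21 had 7 lower and 4 higher ratios, YAP1 had 4 lower and 8 higher, and H3K27ac had 4 lower and 10 higher. Groups of 2 against 2 separate at a rate of 0.33 by order alone. In each target between 42.3 and 53.8% of the ratios separated. The share over all intervals was not computed for this measure, so whether the members' shares are high cannot be told. Ratios of 1 gene share a denominator, so they are not independent. Some rest on very few counts: the CTCF ratio 57.3 kb into STK39 was lower on counts of 1 and 2 in vehicle and 0 in both sorbitol libraries. Over all tested intervals CTCF also had a median above 0 near starts and below 0 away from them, as given above, so the lower CTCF ratios follow the direction of all intervals. The STK39 intron ratio went from 1.53 and 2.00 to 0.13 and 0.25, and the WNK1 upstream ratio from 0.26 and 0.28 to 0.13 and 0.12. The LRRC8A upstream interval (chr9:128879304-128879699) went from 0.53 and 0.45 to 0.13 and 0.11, on CTCF counts of 32 and 22 against 6 and 5, which the fit did not call (log2 fold change -0.87, edgeR adjusted p = 0.241). Its denominator, the LRRC8A start site, itself rose in CTCF (log2 fold change 1.16), so this ratio holds both changes. At SLC12A7 13.8 kb the YAP1 ratio went from 0.73 and 1.21 to 3.33 and 3.00.

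**Figure D4:**
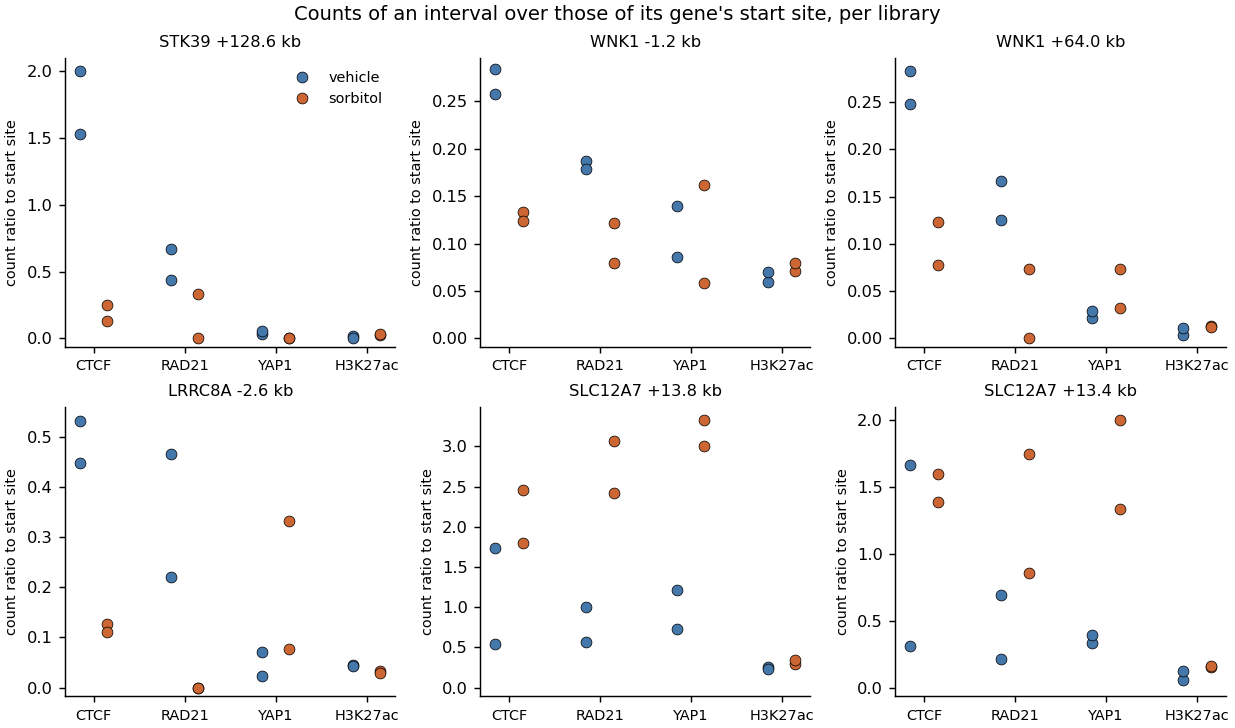
Counts of an interval divided by those of its gene's start-site interval (y) in each library, by target (x), for 6 member intervals; blue is vehicle and orange sorbitol. CTCF ratios at STK39, WNK1 and LRRC8A are lower in both sorbitol libraries, and YAP1 ratios at the 2 SLC12A7 intervals are higher in both.

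**Figure D5:**
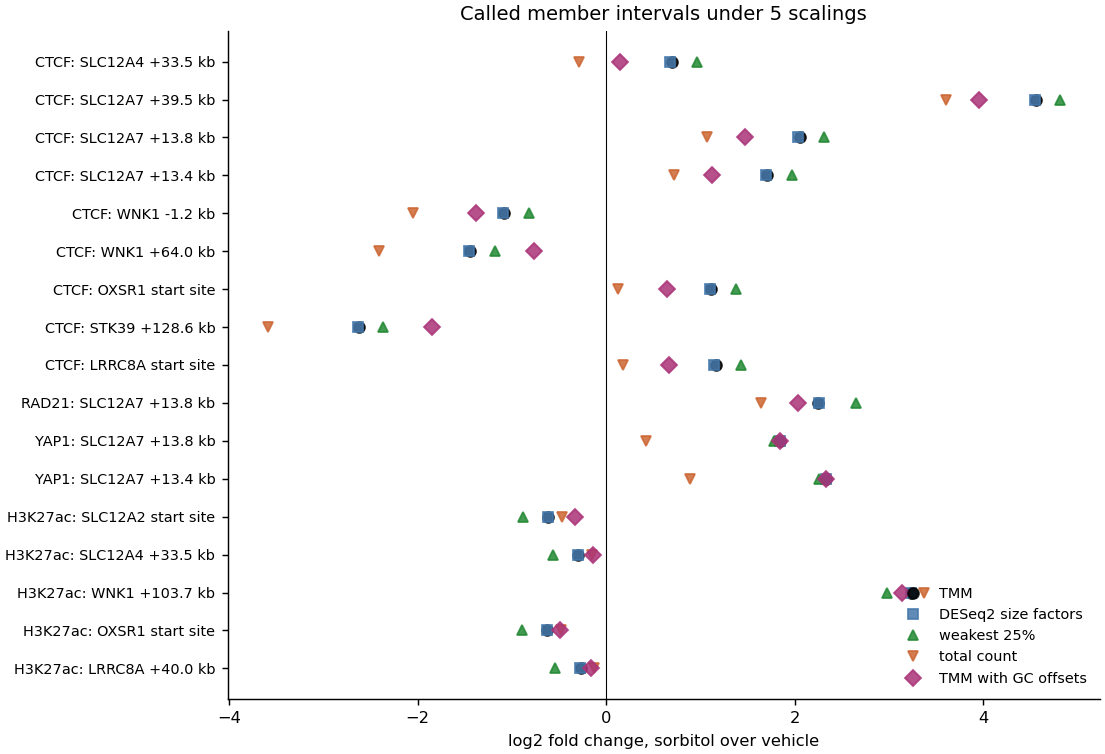
Log2 fold change (x) of the 17 calls (y, target and interval) under 5 scalings, given by marker shape and color. Total count scaling moves all CTCF and YAP1 values to the left, and the SLC12A2 and OXSR1 falls in H3K27ac stay below 0 under each.

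The members share few of the sequence features that were searched. The median GC content of the 33 intervals was 59.6%, against 54.2% for all. The CTCF consensus with at most 1 mismatch occurred in 2 member intervals (6.06%, against 18.4% of all), the WNK1 upstream interval and the PHYHD1 interval. In windows of 300 bases at interval centres, read on both strands, the AP-1 motif TGANTCA occurred in 2 of 33 members (8.42% of all), the TEAD motif GGAATG in 7 (14.5%) and TGGAAA, the core of the NFAT5 motif, in 3 (20.3%).

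The start sites most like those of 6 members were found by Pearson r of log2(CPM + 1), centred by target, over the 16 libraries. They were RPS15A for SLC12A7 (r = 0.979), CRY2 for LRRC8A (0.968), MARCHF6 for STK39 (0.957), EMX1 for SLC12A4 (0.946), TRPA1 for WNK1 (0.923) and ENSG00000285043 for SLC12A2 (0.885). The points share libraries and depth, and each is the best of many genes, so these are descriptions.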

How the data were processed

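CUT&Tag was measured in 16 libraries. The authors deposited raw counts per interval, whole numbers not scaled between libraries. The submitters' processing notes name Trim Galore, FastQC, BWA 0.7.17, SAMtools, Picard, bedtools 2.31.1 and MACS2 2.2.6, and the builds hg38 and GRCh38, without their order or role. Whether each library had its own peak calls or reads were pooled first, and how reads with several places were treated, is not given in the sources used here. All 74404 intervals lay on hg38 names and within their lengths.

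Members and lists were chosen with earlier results of these data known. Each target was fitted in edgeR 4.0.16 (R 4.3.3) on its 4 libraries, with TMM scaling, filterByExpr (minimum count 10), robust quasi-likelihood dispersion and Benjamini-Hochberg adjustment over all tested intervals, called under 0.05. Differences between targets came from fits over 8 libraries. DESeq2 1.42.0 served as an alternative. The start-site interval of a gene has the highest mean H3K27ac CPM within 1 kb (1000 bp) of its own start. Named intervals are the start sites and all called intervals of a target where there were at most 8, otherwise the 5 largest rises and falls. Also named are the strongest CTCF and RAD21 intervals in CPM over 1 kb from a gene's own starts. The PSMB10 rise in CTCF falls outside the 5 largest rises and is also the strongest such interval. WNK1 at 61.8 kb and the LRRC8A upstream interval were chosen after their values were seen. Totals of 1187939 to 8842656 counts per library limit precision, and intervals for counts cover counting error only. The start site most like that of OXSR1 and 1 gene of the further transport list are not reported here.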

Additional observations from a re-analysis of the deposited data

Results flagged for a closer look

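At 2 of 25 tested member intervals the H3K27ac response to sorbitol differed from the YAP1 response, by the test of the difference itself in edgeR. Of all 52935 tested intervals 6.27% were called, so the members' share is near that background. The median difference over all of them was 0.22, or 1.42 with total count scaling. At the SLC12A7 intron interval 13.8 kb into the gene the difference was -1.29 (log2, adjusted p = 0.0498). It was called under 4 of 9 other settings and without 1 of the 8 libraries, YAP1 vehicle replicate 2; without the other 7 it lay between -1.40 and -0.88. At the STK39 start site the difference was 1.65 (adjusted p = 0.0385), called under 7 of 9 settings. Leaving out H3K27ac sorbitol replicate 1 (1.54), H3K27ac vehicle replicate 1 (1.47), YAP1 sorbitol replicate 2 (1.07) or YAP1 vehicle replicate 1 (1.58) ended that call. Its YAP1 counts were 54 and 38 in vehicle and 8 and 1 in sorbitol.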

How the results depend on the processing

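Of 811 values of single intervals under other settings, 710 stayed on their side of the threshold, 74 lost and 20 gained a call, and 7 turned with at least 1 of the compared values called; the cause was not tested. Of the 710, 74 changed sign with neither value called. The 7 were, with total count scaling, CTCF at the PSMB10 interval (-0.28), YAP1 at the start sites of WNK1 (-1.21), OXSR1 (-1.18), SLC12A7 (-1.29) and SLC12A2 (-1.02), and H3K27ac minus YAP1 at OXSR1 (0.70), and, scaled to the weakest 25%, H3K27ac at WNK1 (-0.24). Counts of member calls that moved by over 1.5 times were as follows. CTCF had 5 with GC-corrected offsets, 5 with the replicate block and GC-corrected offsets and 2 of 6 at a mean of at least 50 counts, where fewer intervals are tested. RAD21 had 3 in a fit on all 16 libraries, 2 scaled to the weakest 25%, 0 with total counts and 0 of 1 at a mean of 50. YAP1 had 10 with total counts, all lower, and 0 of 3 at a mean of 50. H3K27ac had 3 with DESeq2, which gave no adjusted p for the WNK1 intron, 3 at a mean of 50, 2 in the fit on 16 libraries, 11 (1 higher, 10 lower) scaled to the weakest 25% and 3 with total counts. CTCF kept its count with total counts, 8, but with 1 higher and 7 lower, and had 8 higher and 2 lower scaled to the weakest 25%. H3K27ac minus YAP1 had 1 with GC-corrected offsets, 1 without a count filter, 1 with the replicate block, 1 with the block and GC-corrected offsets, 1 scaled to the weakest 25% and 11 with total counts. Leaving out the repeated SLC12A7 intervals, chosen after seeing the data, left 0 for RAD21, 0 for YAP1 and 1 for H3K27ac minus YAP1. Leaving out 1 library gave 4 to 10 for CTCF, 1 to 2 for RAD21, 0 to 3 for YAP1, 2 to 6 for H3K27ac, 0 to 1 for RAD21 minus CTCF and 0 to 2 for H3K27ac minus YAP1, the lone library being assumed to vary like the others. With the replicate block, though same-numbered libraries did not deviate together (correlations of deviations from -0.009 to 0.006), CTCF had 8 calls (the WNK1 upstream interval lost its own, adjusted p = 0.0557), RAD21 1, YAP1 2 and H3K27ac 5. Intervals with few counts limit RAD21 and YAP1 most: 20 and 18 of the 33 members could not be tested.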

Other observations

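A further list of 32 genes of cell volume and ion transport had 178 intervals by the same rule. CTCF was called in 32 of 85 tested intervals (21 higher, 11 lower), RAD21 in 1 of 40, YAP1 in 2 of 58 and H3K27ac in 43 of 152 (23 higher, 20 lower). These are 37.6%, 2.50%, 3.45% and 28.3%, against 40.2%, 4.79%, 6.83% and 23.1% of all tested intervals. The list was chosen with results of these data known.

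An interval 849 bp from a PIEZO1 start, a gene for a stretch-activated channel, rose in CTCF (log2 fold change 1.81 ± 0.22, SE, edgeR adjusted p = 1e-06) and YAP1 (2.28 ± 0.24, adjusted p = 2.27e-06). PIEZO1 intervals differed among themselves: the one at its start (chr16:88783893-88786103) fell in CTCF (-0.57, adjusted p = 0.013) and H3K27ac (-0.44, adjusted p = 0.000112), and another (chr16:88755473-88755942) fell in CTCF (-1.73, adjusted p = 0.0109). SLC38A2, an osmotically induced amino acid transporter, rose in CTCF (log2 fold change 0.80) and fell in H3K27ac (-0.73) at its start, as ATP1B1 did (1.18 and -0.40), while LRRC8C, a partner subunit of LRRC8A, fell in CTCF (-0.96) and rose in H3K27ac (0.31).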
